A study of Mus musculus with 6 samples.

Results

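The 8 genes described here encode the chondroitin sulfate proteoglycans (CSPGs) of neural tissue and the link proteins that hold them in the matrix. They are the lecticans Ncan, Bcan, Acan and Vcan, the transmembrane proteoglycans Cspg5 and Cspg4, and the link proteins Hapln1 and Hapln4. They were taken by symbol from the 32371 genes of the table, in which all 8 were found. RNA-Seq was done on retinal cells of adult C57BL/6J mice of both sexes, sorted by FACS for CD90.2, which Thy1 encodes, 3 days after an optic nerve crush (ONC). The 3 control libraries came from mice that had received AAV2-GFP in the vitreous 2 weeks before the ONC, and the 3 others from mice that had received AAV2-Ezh2-Y726D, a form of the histone methyltransferase Ezh2 with no catalytic activity. All 6 libraries thus share the virus serotype, the injury and the sort, and an uninjured retina was not analysed here. The virus is not specific to retinal ganglion cells (RGCs), and whether retinas were pooled for a library is not given in the sources used here.

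CSPGs are core proteins that carry long sulfated sugar chains. Lecticans bind hyaluronan at their N-terminal end and tenascin-R at their C-terminal end, link proteins clamp the lectican onto the hyaluronan, and together they build the perineuronal net and the diffuse matrix of the CNS. After injury, CSPGs are a major class of extracellular inhibitors of axon growth. They act on neurons through receptors such as the phosphatases encoded by Ptprs and Ptprf and the Nogo receptor encoded by Rtn4r.

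Values are CPM (counts scaled to 1e+06 per TMM-scaled library), and differences are log2 fold changes of Ezh2-Y726D over GFP, each with its SE, that edgeR gave, with P values from its quasi-likelihood test adjusted by the Benjamini-Hochberg method over the 18138 genes tested. A gene is called higher or lower at an adjusted P under 0.05, and a DEG if its fold change is also over 1.5. Total counts were 9333244 to 23782520 per library. A single rRNA gene, CT010467.1, took 50.9% and 52.2% of them in GFP replicates 2 and 3 and 2.55% to 16.1% in the other libraries, so that those GFP libraries kept 5745352 and 4460732 counts for all other genes. Ezh2 itself was at 24.3 ± 1.88 CPM in GFP and 65.3 ± 0.213 CPM in Ezh2-Y726D (SD, n = 3 libraries each), in the direction of the labels, and reads of the vector and of the mouse's own gene cannot be told apart. The RGC markers Slc17a6 and Thy1, of which Thy1 encodes the antigen used for the sort, were at 76.2 CPM or more in every GFP library. Of the same list, Rbpms, Pou4f1 and Pou4f2 had means of only 15.4, 9.82 and 1.76 CPM in GFP, and the rest had means of 29.4 (Sncg) to 145 (Nefl) CPM. Markers of other cells were detected too. In the GFP libraries 8 Müller glia genes summed to 6767 to 7079 CPM and 6 rod genes to 5343 to 5482 CPM, against 469 to 479 CPM for 9 RGC genes. The sorted cells labelled as RGCs thus held transcripts of several retinal cell types, and in such bulk libraries fewer cells of a type and less RNA per cell cannot be told apart.

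In the mouse genome each lectican gene lies beside a link protein gene, and both genes of each pair were in the table. On GRCm38, Ncan (ENSMUSG00000002341, chromosome 8, 70093085 to 70120873, minus strand) and Hapln4 (ENSMUSG00000007594, 70083457 to 70090862, plus strand) point toward each other with 2222 bases between them. Vcan (ENSMUSG00000021614, chromosome 13, 89655312 to 89742509, minus strand) and Hapln1 (ENSMUSG00000021613, 89539796 to 89611652, plus strand) are in the same tail-to-tail arrangement over 43659 bases. Acan (ENSMUSG00000030607, chromosome 7, 79053483 to 79115099, plus strand) ends 2 bases from the end of Hapln3, and Bcan (ENSMUSG00000004892, chromosome 3, 87987531 to 88000230, minus strand) lies 21519 bases downstream of Hapln2 on the same strand. No other annotated gene lies between the members of a pair. Cspg5 (ENSMUSG00000032482, 110243783 to 110262576) and Cspg4 (ENSMUSG00000032911, 56865033 to 56899870) are both on the plus strand of chromosome 9 and have no such partner. None of the 8 genes shares exonic bases with another annotated gene.

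**Figure D1:**
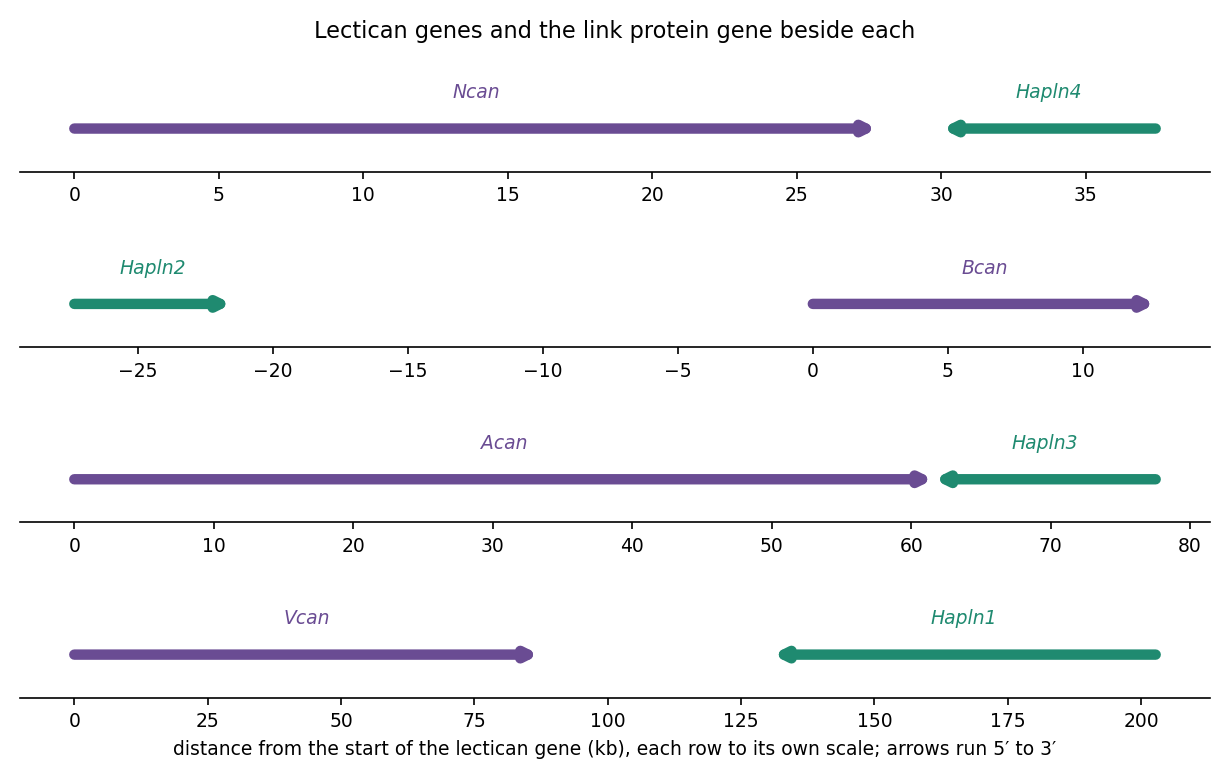
Gene bodies of the 4 lecticans (purple) and their neighbouring link protein genes (green) on GRCm38, plotted as distance in kb from the start of each lectican gene, each row to its own scale, with arrows running 5′ to 3′. In 3 pairs the arrows meet tail to tail, with 2 to 43659 bases between the genes, and in the pair of Bcan and Hapln2 they run the same way.

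For the lecticans called higher, the sequence upstream of the start is shown because CpG-dense promoters are where Polycomb complexes, of which Ezh2 is a part, are generally found. It is taken from RefSeq on GRCm38.p6, is written 5′ to 3′ on the minus strand, covers chr8:70120874-70121094 for Ncan and chr3:88000357-88000606 for Bcan, and has each CpG in capitals. Each stretch ends where the window reaches the first of the starts that RefSeq and GENCODE give, which is the GENCODE start for Ncan and the RefSeq start, upstream of the gene bounds above, for Bcan.
Ncan: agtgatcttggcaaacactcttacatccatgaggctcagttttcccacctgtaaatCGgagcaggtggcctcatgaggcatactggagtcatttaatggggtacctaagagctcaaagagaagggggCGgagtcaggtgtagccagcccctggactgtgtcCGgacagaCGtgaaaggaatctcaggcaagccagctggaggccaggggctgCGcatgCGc
Bcan: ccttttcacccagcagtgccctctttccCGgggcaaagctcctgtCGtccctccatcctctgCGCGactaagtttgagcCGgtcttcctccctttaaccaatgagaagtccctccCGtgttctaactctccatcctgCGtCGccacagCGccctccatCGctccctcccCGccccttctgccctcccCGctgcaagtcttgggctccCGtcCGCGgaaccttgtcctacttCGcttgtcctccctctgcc

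The 221 bases shown for Ncan hold 6 CpG and the 250 bases shown for Bcan hold 16. RefSeq windows of 300 bases, 250 before to 50 after the start, were found for 6 of the 8 genes. The median over all 32851 windows was 7 CpG. Acan held 31 CpG, more than 89.4% of all windows, Bcan 24, Cspg4 17, Vcan 12, Ncan 9 and Hapln1 3, which was more than 23.3% of windows. The letters GGGCGG, searched on both strands, were found in 5 of the 6 windows (all but Hapln1) and in 35.7% of all windows. Of the genes called higher, Ncan and Bcan had a window and Cspg5 had none. In CpG content Ncan lay below and Bcan above Vcan and Cspg4, which were not called. So few windows cannot show whether CpG content or the letters separate called from uncalled genes.

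Compared per kb of exon, the members fell into an order that was nearly the same in every library. Cspg5 stood first, with 17.4 to 17.8 CPM per kb in the GFP libraries and 19.9 to 20.5 in the Ezh2-Y726D libraries. Ncan was second in all 6 libraries, at 2.74 to 3.02 and 3.36 to 3.54 CPM per kb. Bcan and Hapln4 overlapped in both groups, and in GFP they overlapped Vcan as well, with 0.54 to 0.898 CPM per kb for Bcan, 0.423 to 1.35 for Hapln4 and 0.401 to 0.642 for Vcan. Cspg4 was sixth in every library, with 0.278 to 0.415 CPM per kb in GFP, a range that reached that of Vcan. Hapln1 was at 0.0281 to 0.131 CPM per kb in GFP, and Acan, the aggrecan gene of cartilage and of perineuronal nets, stood last in every library with a total of 4 counts over all 6. Of the lecticans of these cells, the neurocan gene was thus read the most and the aggrecan gene hardly at all.

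Of the 8 genes, 7 passed the filter on low counts. Ncan, Bcan and Cspg5 were called higher after Ezh2-Y726D overexpression and none was called lower in the edgeR fit, where at an unadjusted P under 0.05 the numbers were 4 and 1. DESeq2 called 2 higher and 0 lower. Over all genes tested, 27.5% were called, 13.9% higher and 13.6% lower. Of the 7, the libraries of both groups did not overlap for Ncan and Cspg5, which lay above in Ezh2-Y726D. Over all genes tested the groups did not overlap for 38.6%, with Ezh2-Y726D above for 19.7% and below for 18.9%. The median log2 fold change of the 7 genes was 0.26, against 0.00 over all genes tested. Only Bcan reached the fold change of a DEG, a call made for 8.02% of all genes tested. When libraries were scaled by their totals alone, the median over all genes tested moved to 0.49, edgeR called 0 members, with 2 higher and 0 lower at an unadjusted P under 0.05, and Vcan and Cspg4 turned from negative to 0.27 and 0.046. A change of scaling moves all genes by nearly the same amount. Relative to that median each of the 7 therefore kept the sign it had with TMM, which is no separate check of the calls.

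Ncan encodes neurocan, a lectican of the nervous system that is made by neurons and glia. It was at 20.8, 19.7 and 21.7 CPM in GFP replicates 1, 2 and 3 and at 25.5, 24.2 and 24.7 CPM in Ezh2-Y726D replicates 1, 2 and 3. Every Ezh2-Y726D library lay above every GFP library. The log2 fold change was 0.26 (SE 0.069, edgeR adjusted P = 0.0044), a rise of 1.20-fold. The value was 0.24 to 0.28 with 1 library left out and was called in all 6 of these fits. DESeq2's Wald test gave it an adjusted P of 0.0476. Thinning every library to the total of the shallowest gave 0.20 (edgeR adjusted P = 0.17), so that the call was lost at that depth.

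Cspg5 encodes neuroglycan C, a transmembrane proteoglycan of neural cells with an EGF-like domain. Its level was 177, 179 and 176 CPM in GFP and 206, 200.003 and 201 CPM in Ezh2-Y726D. These were the narrowest ranges of any member, with the highest library of a group 1.02 and 1.03 times the lowest, and the groups did not overlap. The log2 fold change of 0.19 (SE 0.039, edgeR adjusted P = 2.88e-04) was the smallest of the called members and had the lowest adjusted P, a rise of 1.14-fold. It was called in all 6 fits that left out a library, with 0.18 to 0.20. DESeq2's Wald test called it too, and so did edgeR with every library thinned to the total of the shallowest (0.22, adjusted P = 6.84e-04). The call was lost with library totals (0.70, edgeR adjusted P = 0.421) and with thinning without CT010467.1 (0.16, edgeR adjusted P = 0.149).

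Bcan encodes brevican, a lectican of the brain and retina that ADAMTS proteases cut. It was read 99, 17 and 22 times in GFP and 195, 101 and 102 times in Ezh2-Y726D, which is 3.47, 2.19 and 3.65 CPM against 7.33, 4.95 and 3.46 CPM. Ezh2-Y726D replicate 3 lay within the GFP range, and replicate 1 was 2.12 times as high as replicate 3. The log2 fold change was 0.69 (SE 0.22, edgeR adjusted P = 0.0199), the largest of the 7. Without Ezh2-Y726D replicate 1 it was 0.35 (adjusted P = 0.227) and without GFP replicate 2 it was 0.57 (adjusted P = 0.0884), so that the call was lost in both edgeR fits. DESeq2's Wald test gave an adjusted P of 0.0543.

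Hapln4, which encodes a brain link protein of perineuronal nets and is the neighbour of Ncan, was at 4.35, 5.29 and 1.66 CPM in GFP and at 6.73, 5.68 and 4.61 CPM in Ezh2-Y726D. GFP replicate 3, with 10 reads, was far below the rest, while GFP replicate 2 lay within the Ezh2-Y726D range. The log2 fold change of 0.47 (SE 0.19) missed the threshold with an edgeR adjusted P of 0.068. It passed without GFP replicate 2 (0.58, adjusted P = 0.0418), without Ezh2-Y726D replicate 3 (0.61, adjusted P = 0.0173) and with no filter on low counts (0.47, adjusted P = 0.014), and was 0.30 without GFP replicate 3, where edgeR's adjusted P was 0.218. Hapln1, the link protein first known from cartilage, was read 12, 6 and 1 times in GFP and 13, 13 and 22 times in Ezh2-Y726D, with a log2 fold change of 0.47 (SE 0.41, edgeR adjusted P = 0.46). That value was 0.75 without GFP replicate 2 and 0.29 without Ezh2-Y726D replicate 3, and was not called in any of the 6 fits with a library left out.

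Vcan encodes versican, a large lectican of many tissues that is also made by fibroblasts and vessel cells. It was at 6.24, 5.80 and 9.29 CPM in GFP and at 6.31, 5.83 and 5.52 CPM in Ezh2-Y726D. Replicate 3 of GFP was high and the other 5 libraries lay close together. The log2 fold change of -0.19 (SE 0.14, edgeR adjusted P = 0.368) was -0.06 without that library. Acan was read 2, 1 and 0 times in GFP and 0, 1 and 0 times in Ezh2-Y726D. Both groups were thus under 3 counts per library, which is 0.102 to 0.498 CPM at these depths, and no difference in Acan could be measured.

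Cspg4 encodes NG2, a transmembrane proteoglycan that marks oligodendrocyte precursors and pericytes. It was at 4.95, 4.51 and 3.32 CPM in GFP and at 4.32, 3.28 and 2.30 CPM in Ezh2-Y726D, and the groups overlapped. The log2 fold change of -0.47 (SE 0.19) missed the threshold with an edgeR adjusted P of 0.0715. It passed without Ezh2-Y726D replicate 1 (-0.74, adjusted P = 0.00463) and without GFP replicate 3 (-0.56, adjusted P = 0.0394), and with no filter on low counts (-0.47, adjusted P = 0.0282), and was -0.24 without Ezh2-Y726D replicate 3, where edgeR's adjusted P was 0.416. Of the oligodendrocyte lineage markers, Olig1, Olig2 and Sox10 were at or under 3 counts in every library. Pdgfra, which marks oligodendrocyte precursors, was read at 29.2 ± 1.76 CPM in GFP and 33.6 ± 2.85 CPM in Ezh2-Y726D (SD, n = 3 each) and was not called, and the myelin gene Mbp was at 32.6 ± 2.73 and 29.2 ± 0.585 CPM and was called lower, with a log2 fold change of -0.20 (-0.23 to -0.09 with 1 library left out, called in 4 of 6 fits). Of 7 markers of pericytes and smooth muscle, 6 were called lower, and their summed level was 219 to 241 CPM in GFP and 170 to 185 CPM in Ezh2-Y726D. Their part in the values of Cspg4 was not tested.

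**Figure D2:**
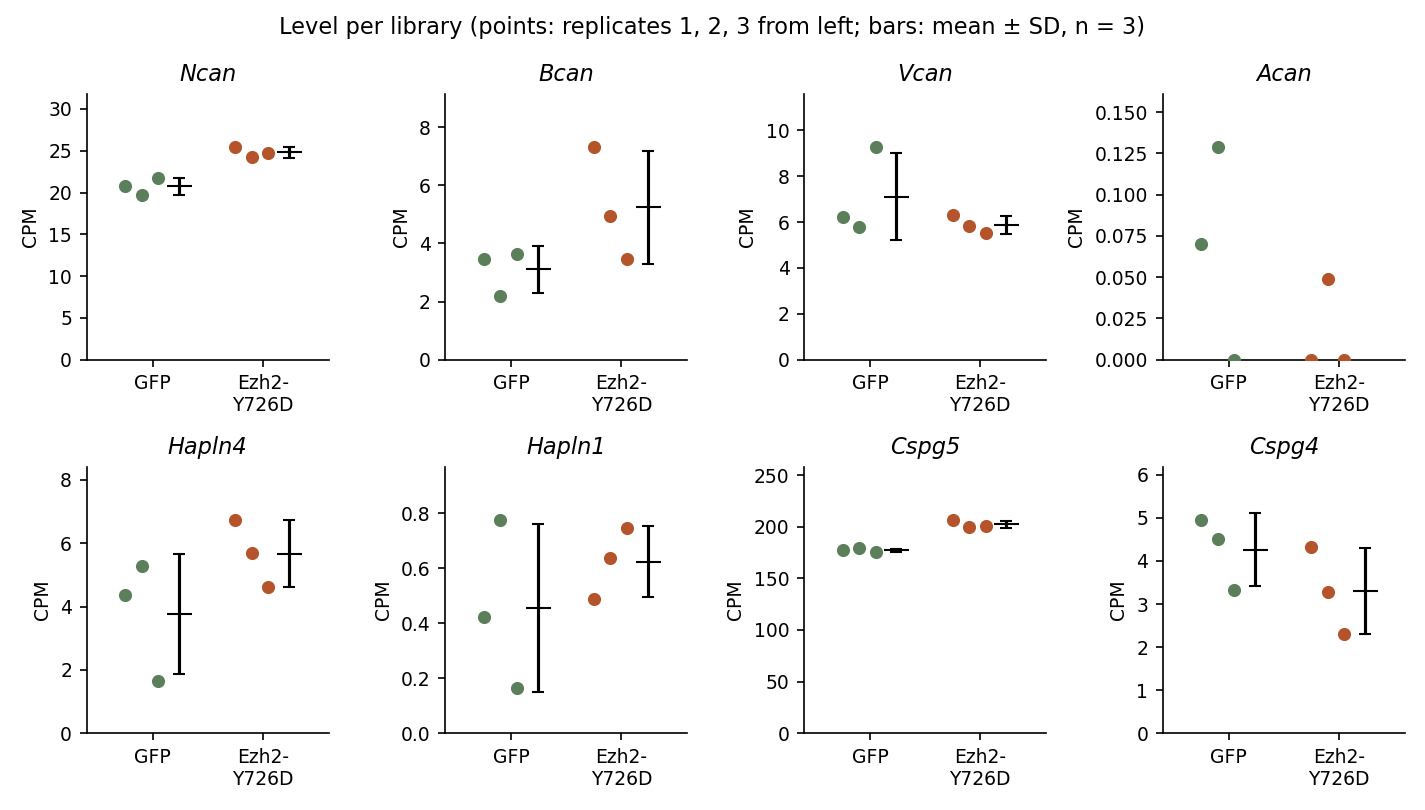
CPM of each of the 8 genes per library (linear axes from 0, one panel per gene), with replicates 1, 2 and 3 of GFP in green and of Ezh2-Y726D in orange, and black bars for the mean ± SD (n = 3), which are left out for Acan with at most 2 counts in a library. The groups are apart for Ncan (19.7 to 21.7 against 24.2 to 25.5 CPM) and Cspg5 (means of 177 against 202 CPM) and overlap for the other genes.

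**Figure D3:**
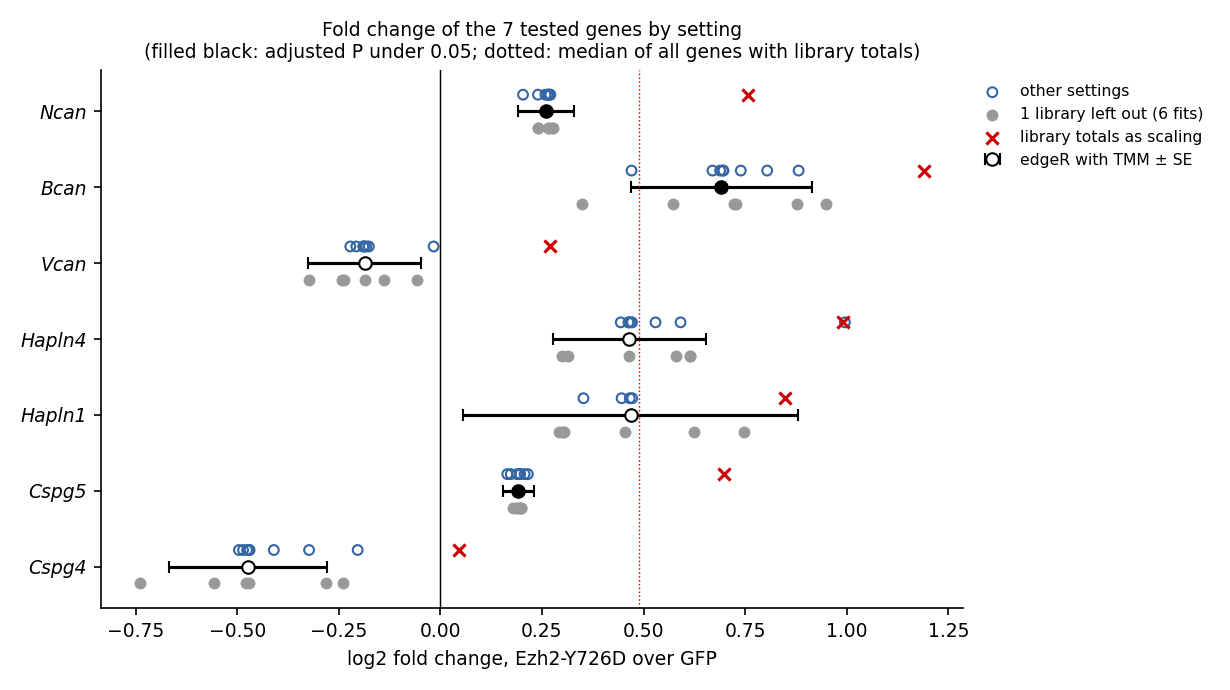
Log2 fold change of the 7 tested genes under each setting, with the edgeR value ± SE in black (filled where called), fits without 1 library in grey, other settings as blue circles and library totals as red crosses. Ncan and Cspg5 hold within narrow ranges, Bcan spans 0.35 to 0.95 with 1 library left out, and the crosses are shifted with the median of all genes, 0.49, drawn as a dotted line.

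The markers of cells that could carry these transcripts did not move as 1 group. The summed level of the 8 Müller glia markers was 6767 to 7079 CPM in GFP and 6759 to 7056 CPM in Ezh2-Y726D, with 3 of 8 called higher and 2 lower. The 9 RGC markers ran from 469 to 479 CPM in GFP and 448 to 483 CPM in Ezh2-Y726D, with 2 called higher and 1 lower. Markers of amacrine cells, which share the ganglion cell layer with RGCs, were higher, with 7 of 7 tested called and a summed level of 987 to 1061 CPM in GFP against 1538 to 1598 CPM in Ezh2-Y726D. Astrocyte markers summed to 616 to 658 CPM in GFP and 562 to 589 CPM in Ezh2-Y726D, and 2 of 4 tested were called lower. Most of that sum came from Slc1a2 (means of 326 and 312 CPM, not called) and Gfap (230 and 188 CPM, called lower). Pax2, at 0.455 and 0.447 CPM, had too few counts to be tested. The part of these cell types in the rises of Ncan, Cspg5 and Bcan was not tested. Horizontal cell markers summed to 15.1 to 17.7 CPM in GFP and 16.3 to 17.2 CPM in Ezh2-Y726D, and the 3 tested had log2 fold changes of -0.28 to 0.17 and were not called.

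**Figure D4:**
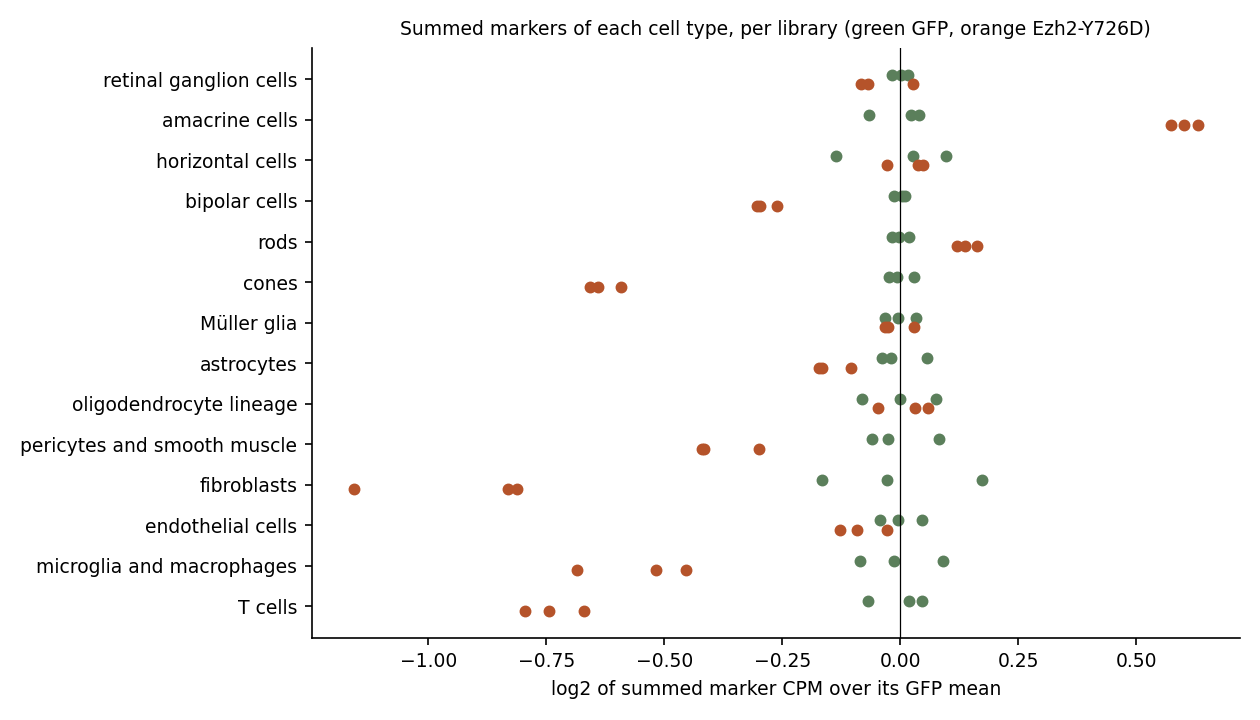
Summed CPM of the markers of each cell type in each library, as log2 of the ratio to the GFP mean, with GFP in green and Ezh2-Y726D in orange. Müller glia and RGC markers overlap between the groups, amacrine markers are higher, and markers of pericytes, fibroblasts, microglia and T cells are lower in all Ezh2-Y726D libraries.

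The other genes of the pathway were followed in 6 lists, in which 70 of 71 genes were found and 66 tested. Of these, 16 were called higher and 14 lower, with a median log2 fold change of 0.02, where 13.9% and 13.6% of all genes tested were called. As with the members, each of the 66 kept its sign relative to the median of all genes when library totals were used, which again follows from the scaling and checks no call.

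Among other proteoglycans and the tenascins, 6 of 11 genes were higher and 4 lower. Spock3, which encodes a testican, a proteoglycan of the neural matrix, was at 66.9 ± 3.92 CPM in GFP and 95.9 ± 4.38 CPM in Ezh2-Y726D (SD, n = 3 each) and rose by 0.52 (SE 0.050, edgeR adjusted P = 3.7e-09). The testican genes Spock2 and Spock1 rose by 0.28 and 0.40, and Tnr and Tnc, whose tenascin products bind lecticans, by 0.22 and 0.28 on the same scale. Ptprz1, the gene of the proteoglycan phosphacan and its receptor form, was called lower, with a log2 fold change of -0.25. The list also held the DEGs that fell, Dcn, Bgn and Srgn. Dcn and Bgn encode the small proteoglycans decorin and biglycan of connective tissue, and were at 3.06 ± 0.569 and 9.24 ± 0.804 CPM in GFP and 1.41 ± 0.279 and 5.02 ± 0.286 CPM in Ezh2-Y726D (SD, n = 3 each), with log2 fold changes of -1.22 (SE 0.22) and -0.94 (SE 0.12). Srgn encodes serglycin, the granule proteoglycan of blood cells, and was at 30.7 ± 1.66 CPM in GFP and 19.0 ± 1.60 CPM in Ezh2-Y726D (SD, n = 3 each), with a log2 fold change of -0.69. Beside them, the 4 fibroblast markers summed to 69.4 to 87.7 CPM in GFP and 34.9 to 44.3 CPM in Ezh2-Y726D, with 3 of 3 tested called lower. The 8 microglia and macrophage markers summed to 448 to 506 and 295 to 347 CPM, with 5 called lower. Of these 8, P2ry12 was called higher (log2 fold change 0.33, called in 3 of 6 fits with a library left out), and Tmem119 and Itgam were not called. The 6 T cell markers summed to 86.4 to 93.5 and 52.2 to 56.9 CPM, with 6 of 6 called lower. The part of these cells in the falls of Dcn, Bgn and Srgn was not tested.

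Of 12 genes that build the linkage region and the chondroitin chain, 3 were called higher and 9 were not called. They were Xylt1 (0.33, edgeR adjusted P = 1.25e-04) and Xylt2 (0.19, adjusted P = 0.0421), whose xylosyltransferase products start the chain on the core protein, and B3gat3 (0.21, adjusted P = 0.00544), whose product adds the glucuronic acid that ends the linkage region. The call of Xylt2 held in 2 of 6 fits with a library left out, those without GFP replicate 1 and without Ezh2-Y726D replicate 3, and its log2 fold change was 0.12 to 0.27 over the 6. The linkage region genes B4galt7 (-0.14), B3galt6 (0.11) and Fam20b (-0.03) were not called. The genes that build the chain beyond the linkage region, among them Chsy1, Chpf and Csgalnact1, were not called either. Chpf was at 0.18 (SE 0.074, edgeR adjusted P = 0.0728), with 0.09 to 0.34 and a call in 2 of the 6 fits with a library left out. Csgalnact1 was at 0.26 (SE 0.12, edgeR adjusted P = 0.112), with 0.19 to 0.56 and a call in 1 of them. Of 11 sulfation and epimerization genes tested, 1 was higher and 2 lower. Dse, which encodes the epimerase that turns chondroitin into dermatan sulfate, was lower, at 15.3 ± 1.96 CPM in GFP and 9.89 ± 0.24 CPM in Ezh2-Y726D (SD, n = 3 each), with a log2 fold change of -0.58 (SE 0.096, edgeR adjusted P = 2.58e-05). Of the genes of enzymes that make the sulfate donor, Papss1 (means of 49.9 CPM in GFP and 50.4 CPM in Ezh2-Y726D) was at 0.006 and was not called. Papss2 (means of 11.4 and 8.10 CPM) changed by -0.40 (edgeR adjusted P = 0.0118) and lost its call without GFP replicate 2 or without Ezh2-Y726D replicate 2. The 4-O-sulfotransferase gene Chst11 was at 0.22 with an edgeR adjusted P of 0.0489 and was called in 1 of these fits, that without GFP replicate 2. Its log2 fold change was 0.14 to 0.29 over the 6. Chst15, a sulfotransferase gene of which 17.9% of the exonic bases overlap Gm10584, was at 0.23 (SE 0.093, edgeR adjusted P = 0.0724) and was not called, with 0.11 to 0.30 over these fits and a call in 1 of them.

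Of the 10 receptor genes, 3 were higher and 2 lower. Ptprf, the gene of the receptor phosphatase LAR, rose from 233, 216 and 224 CPM in GFP to 320, 318 and 295 CPM in Ezh2-Y726D, a log2 fold change of 0.46 (SE 0.043, edgeR adjusted P = 1.31e-09). Ptprs, the gene of the related CSPG receptor PTPσ, rose by 0.17 (SE 0.041, edgeR adjusted P = 0.00277), while Ptprd was at 0.05 and did not pass. Egfr rose by 0.20. Rtn4rl2, of the Nogo receptor family, had a log2 fold change of -0.49 and the integrin gene Itgb1 one of -0.34, and both were called lower. The Nogo receptor genes Rtn4r and Rtn4rl1, at 0.33 (SE 0.26) and -0.12 (SE 0.058), were not called.

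Among the hyaluronan genes and other link proteins, 1 of 8 tested was higher and 2 lower. Cemip, whose product binds and breaks down hyaluronan, rose by 0.25, and Cd44, the hyaluronan receptor, and Cemip2, a cell surface hyaluronidase, had log2 fold changes of -0.22 and -0.27. Hmmr was at -0.61 (SE 0.26) and did not pass, with -1.02 to -0.40 over the fits with a library left out, of which that without GFP replicate 1 called it (edgeR adjusted P = 0.0164). The hyaluronan synthase genes were little read, with Has1 and Has2 under the filter on low counts and Has3 at 0.74 (SE 0.42), which ran from 0.54 without GFP replicate 2 to 1.496 without GFP replicate 1 and was not called. Of the link protein genes beside Acan and Bcan, Hapln3 was at 2.82 to 2.98 CPM in GFP and 3.38 to 3.91 CPM in Ezh2-Y726D, with a log2 fold change of 0.30 (SE 0.17, edgeR adjusted P = 0.204), and Hapln2 had too few reads to be tested. Beside its nearly unread neighbour Acan, Hapln3 was thus detected in every library.

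Of 14 matrix proteases and inhibitors tested, 2 were higher and 4 lower. Adamts1 and Adamts4, whose products cut lecticans, were higher by 0.21 (edgeR adjusted P = 4.87e-04) and 0.49 (edgeR adjusted P = 0.0291). Adamts5, with means of 96.5 CPM in GFP and 93.8 CPM in Ezh2-Y726D, was at -0.03 and was not called. Adamts8, Adamts9, Adamts15 and Adamts20 were not called either. The call of Adamts4 held without GFP replicate 1 and without Ezh2-Y726D replicate 3 and was lost in the other fits with a library left out, where the range over the 6 was 0.38 to 0.77. Mmp2, a gelatinase gene, was the only DEG of the list, with 4.38 ± 0.623 CPM in GFP and 2.64 ± 0.126 CPM in Ezh2-Y726D (SD, n = 3 libraries each) and a log2 fold change of -0.65 (SE 0.17, edgeR adjusted P = 0.00432). Mmp14, whose product activates it, was at -0.40 and the inhibitor gene Timp1 at -0.45, both called lower.

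**Figure D5:**
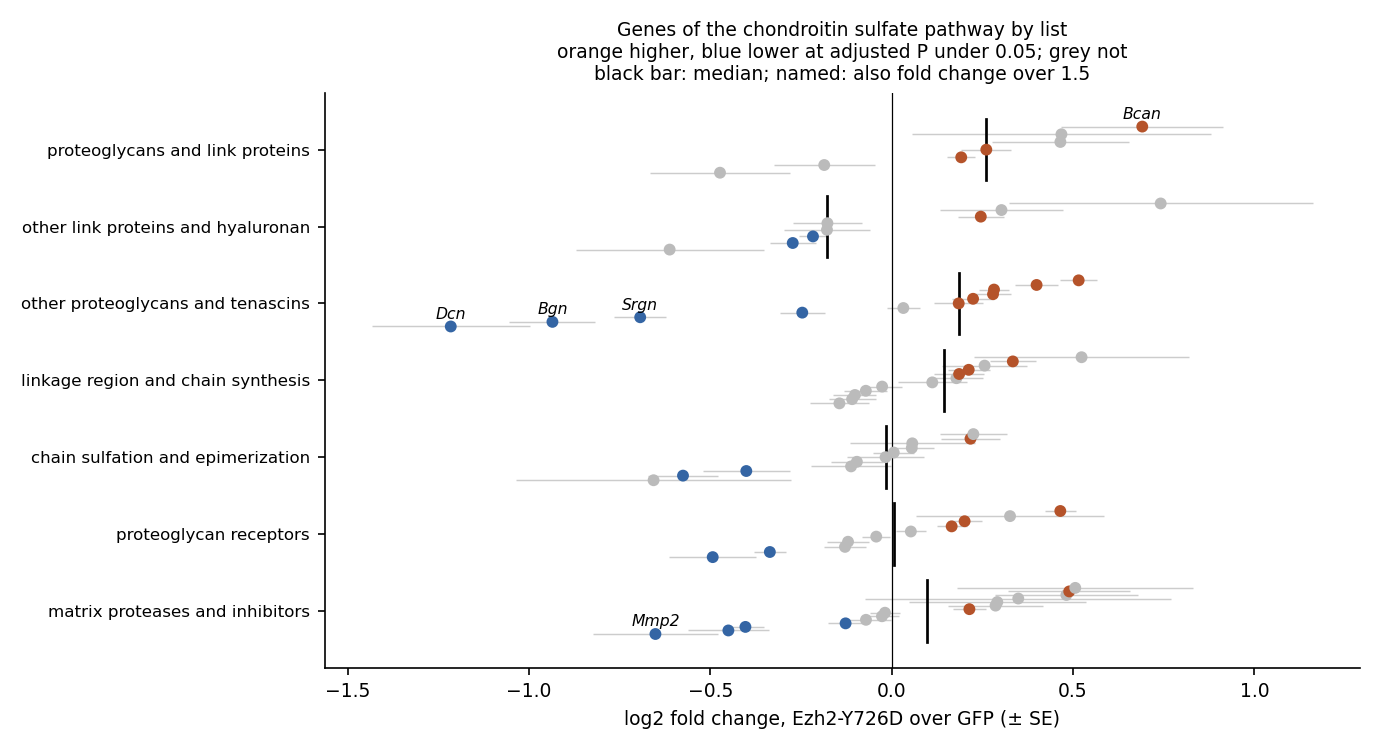
Log2 fold change ± SE of the tested genes of each list, with genes called higher in orange and lower in blue, the list's median as a black bar, and names on the DEGs. The medians lie between -0.18 and 0.26, and the DEGs are Bcan on the right and Dcn, Bgn, Srgn and Mmp2 on the left.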

How the data were processed

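RNA was taken from sorted retinal cells and sequenced from a stranded total RNA kit. The table that the authors deposited holds raw counts, 1 whole number for each gene and library. Their processing notes name STAR 2.7.0d and GRCm38, and the counting tool, annotation and strand setting are not given in the sources used here. Of 32371 identifiers, 32342 were found in GENCODE vM21 (GRCm38), which gave symbols, coordinates and exonic lengths. From the counts, edgeR 4.0.16 (R 4.3.3) computed TMM factors (0.647 to 1.31), CPM, and its quasi-likelihood test by group, after filterByExpr with a minimum of 10 counts and a total of 15, adjusted by Benjamini-Hochberg over 18138 genes. The SE of a log2 fold change was taken as its size over the root of the F statistic. Depth without CT010467.1 was 4460732 to 22024582 counts, so that genes with few reads were least precise in GFP replicates 2 and 3. Where nothing says that libraries of a group came from separate mice, P values measure only the spread between these libraries. Every pair of libraries differed by more than counting noise (chi-square per degree of freedom 1.53 or more).

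The members and lists were chosen with earlier results of these data known. Named genes are all members, Ezh2, and of each list the DEGs and the 4 genes of lowest adjusted P; others were named after their values were seen. Marker lists covered RGCs, amacrine, horizontal and bipolar cells, rods, cones, Müller glia, astrocytes, oligodendrocytes, pericytes, fibroblasts, endothelium, microglia and T cells. Alternatives were RLE factors, library totals with and without CT010467.1, DESeq2 1.42.0, omitting the filter, requiring 10 counts in each library, a replicate block, leaving out each library, and counts thinned once to the shallowest total. Thinning without CT010467.1 was added after seeing the data. The fit was tested on simulated counts. Promoter windows are RefSeq's on GRCm38.p6. No protein sequence was used here.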

Additional observations from a re-analysis of the deposited data

How the results depend on the processing

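With RLE factors, with totals from which CT010467.1 was removed and with at least 10 counts in every library, 3 members were called higher, as with TMM, and with DESeq2 2. With library totals no member was called (0 higher, 0 lower) and 0 and 0 genes of the pathway lists were by edgeR, against 2 and 0 members and 13 and 0 pathway genes at an unadjusted P under 0.05, and the log2 fold changes of Vcan and Cspg4 turned to 0.27 and 0.046, below the median of all genes. Thinning the counts without CT010467.1 to the shallowest library left 0 members higher and 6 and 3 pathway genes higher and lower. That setting keeps fewer counts. With a fold change over 1.5 added, 1 member was called higher. Without a filter, 4 members were called higher, Hapln4 being added, and 1, Cspg4, lower. With 1 library left out, 2 to 4 members were called higher and 0 to 1 lower, and 12 to 17 pathway genes higher and 12 to 16 lower. With the replicate number as a block, 4 members were called higher, Hapln4 (0.59, adjusted P = 0.00631 from edgeR) being added, and 17 and 15 pathway genes were called higher and lower. The numbers were not taken as pairs, since deviations from the group means of same-numbered libraries correlated at 0.0238 to 0.0723 across genes, although each library correlated best with its own number. Of the single-gene values under all alternatives, 82 kept their direction and side of the threshold, 10 lost the call, 7 gained it and 2 turned. The cause of these changes was not tested. Acan, with 4 counts in all, was too little read to be tested.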

Other observations

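Marker genes of other retinal cells that were fixed beside the pathway lists also differed between the groups. Of 7 bipolar cell markers, edgeR called 6 lower and 1 higher, and the summed level was 982 to 997 CPM in GFP and 802 to 826 CPM in Ezh2-Y726D. All 6 cone markers were called lower, with a summed level of 388 to 403 CPM in GFP and 250 to 262 CPM in Ezh2-Y726D. Rod markers summed to 5343 to 5482 CPM in GFP and 5877 to 6059 CPM in Ezh2-Y726D, with 2 of 6 called higher. Of 6 endothelial markers, Kdr and Pecam1 were called lower, and the summed level was 953 to 1013 CPM in GFP and 898 to 962 CPM in Ezh2-Y726D. Nearly all of that sum came from Kdr (means of 763 and 696 CPM) and from Flt1 (200 and 214 CPM), which was not called. Each of the other endothelial markers had a mean of 8.24 CPM or less in both groups, so that the sum mostly follows Kdr.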
